A study of Homo sapiens with 8 samples.

Results

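The genes described here encode cofactors of the HOX proteins. They are MEIS1, MEIS2 and MEIS3, PBX2, PBX3 and PBX4, and PKNOX1 and PKNOX2, 8 of the 35940 gene symbols in the deposited table, taken by name. All samples came from ESI017, a wild-type line of human embryonic stem cells, so the data speak of 1 cell line. In every group the stem cells had been moved into N2B27, a serum-free medium, with the compounds SB (10 µM) and LDN (100 nM), and WNT3A (300 ng/mL) was supplied from 34 h onward to direct them to a posterior neural fate, per the labels. Poly(A) RNA was sequenced at 34 h, when WNT3A was added, and at 42, 50 and 72 h, that is after 8, 16 and 38 h of WNT3A, with 2 libraries at each time point. Cells kept without WNT3A were not analysed here, so elapsed time and WNT3A cannot be told apart in any comparison. The labels give replicate 1 and replicate 2 also as batch 1 and batch 2, and the design text calls the repeat an independent biological replicate.

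MEIS, PBX and PKNOX proteins belong to the TALE class of homeodomain proteins, named for a 3-residue extension of the loop between the first helices of the homeodomain. PBX proteins bind DNA side by side with HOX proteins, while MEIS and PKNOX (also called PREP) proteins bind PBX through their amino-terminal part, which holds PBX in the nucleus, and can join the HOX complex on DNA. In the vertebrate hindbrain such complexes drive anterior HOX genes and their targets, and PBX and PKNOX proteins are known to be present before HOX genes are switched on.

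For 7 of the genes the stretch of the reference coding sequence that starts at the TALE loop is shown because it defines the class and shows how close these 7 are. The capitals mark the 3 codons of the loop, which read proline, tyrosine and proline in each of the 7 genes. The 90 bases run 5′ to 3′ into the recognition helix and stop within it. They were read from GENCODE release 29 (GRCh38), and each stretch is coding and spans 2 exons, so the positions include an intron.
MEIS1: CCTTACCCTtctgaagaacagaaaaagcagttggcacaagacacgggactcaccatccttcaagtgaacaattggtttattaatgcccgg
MEIS2: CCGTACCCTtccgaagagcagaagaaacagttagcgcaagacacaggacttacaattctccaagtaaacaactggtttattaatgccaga
MEIS3: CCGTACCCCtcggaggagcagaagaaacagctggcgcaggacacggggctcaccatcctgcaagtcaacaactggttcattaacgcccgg
PBX2: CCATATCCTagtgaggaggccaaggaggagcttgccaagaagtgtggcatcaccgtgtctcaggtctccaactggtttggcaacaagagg
PBX3: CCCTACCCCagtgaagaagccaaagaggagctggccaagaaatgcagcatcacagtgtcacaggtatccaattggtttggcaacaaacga
PKNOX1: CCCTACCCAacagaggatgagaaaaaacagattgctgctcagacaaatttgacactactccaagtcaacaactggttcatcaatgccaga
PKNOX2: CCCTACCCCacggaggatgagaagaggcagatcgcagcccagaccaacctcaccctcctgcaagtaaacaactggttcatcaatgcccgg
These stretches lie in exons 8 and 9 of MEIS1 (chr2:66547946-66567468, plus strand), exons 9 and 10 of MEIS2 (chr15:36896671-36950397, minus strand), exons 9 and 10 of MEIS3 (chr19:47407122-47407425, minus strand), exons 5 and 6 of PBX2 (chr6:32187369-32187709, minus strand) and exons 5 and 6 of PBX3 (chr9:125935545-125960710, plus strand). They lie in exons 9 and 10 of PKNOX1 (chr21:43024874-43028717, plus strand) and exons 11 and 12 of PKNOX2 (chr11:125429015-125429978, plus strand). Over the 30 encoded residues the 3 MEIS genes were identical, although their bases agreed at only 73 or 74 of 90 positions. PKNOX1 and PKNOX2 shared 29 of the 30 residues and 72 of the 90 bases, and PBX2 shared 29 residues with PBX3. Between families, MEIS and PKNOX genes shared 21 or 22 residues, each MEIS gene shared 18 with PBX2 and 17 with PBX3, and each PKNOX gene shared 14 with either of these PBX genes.

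The values are TPM (a share of the library, scaled for transcript length), so levels can be compared between genes. Every column summed to 1000000, the read depth is unknown, and no counting interval was computed. Per library, 13860 to 14004 genes had 1 TPM or more, and the mitochondrial share was 8.70% to 11.2%. Genes were tested where 2 or more of the 8 libraries had 1 TPM or more, which kept 14908 genes. Changes are differences of log2(TPM + 1), which understates the change of low genes, and a gene was called at a limma adjusted p under 0.05 over all 14908 genes. All 8 cofactor genes were tested, but MEIS1 passed only through its 72 h libraries and so had to differ there. In bulk RNA, fewer cells of a type and less RNA per cell cannot be told apart.

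Most of the cofactor genes stood higher at 72 h than at 34 h, and PKNOX1 stood lower. At 42 h, 2 of the 8 were raised, MEIS2 and PKNOX2, and 0 were lowered, against 1.78% raised and 0.792% lowered among all tested genes. At 50 h 3 were raised (MEIS2, MEIS3 and PKNOX2) and PKNOX1 was lowered, against a background of 3.52% and 2.74%. At 72 h 7 were raised and 1 lowered, or 6 and 1 of 7 without MEIS1, against 12.7% and 11.3% of all tested genes. The 3 comparisons share the 34 h libraries. The median log2 change of the 8 genes at 42, 50 and 72 h was 0.19, 0.32 and 1.11 (0.75 in place of 1.11 without MEIS1), beside 0.01, 0.04 and 0.06 over all tested genes. By the moderated F-test over the 3 comparisons, 6 of the 8 were called (17.4% of all tested genes), the others being PBX3 (adjusted p 0.123) and MEIS1 (0.0539).

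The count at 72 h rests in part on each of the 34 h and 72 h libraries. Leaving out any 1 of these 4 libraries left 5 of the 8 called, while the calls over all tested genes went from 3578 to between 1840 and 2176; the 5 were in each case MEIS2, MEIS3, PBX2, PKNOX1 and PKNOX2. At 42 h the count was 1, MEIS2, without replicate 2 at 34 h, either 42 h library or either 72 h library, and at 50 h it was 2, MEIS2 and PKNOX2, without either 34 h library.

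**Figure D1:**
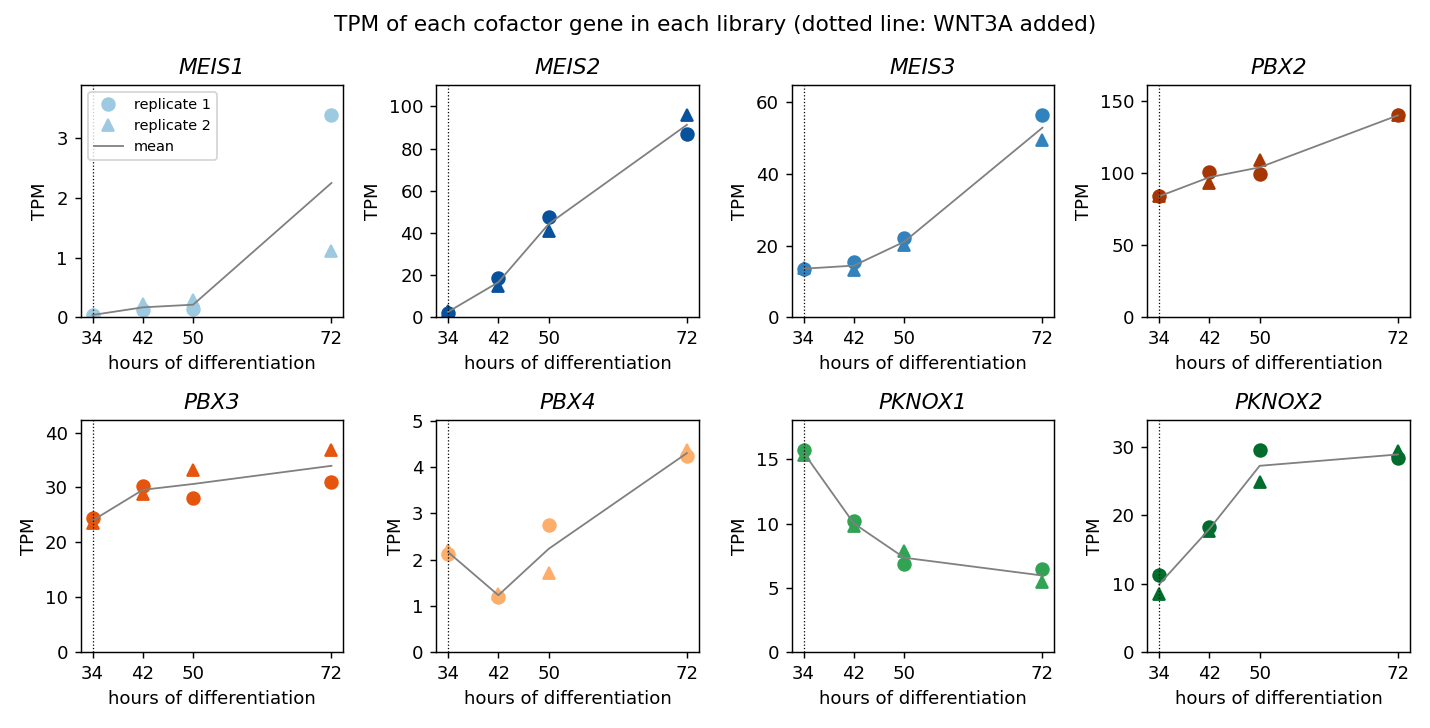
TPM of each of the 8 genes (vertical axes, starting at 0 and scaled by gene) against hours of differentiation, with 1 point per library and the mean of 2 libraries as a line. MEIS1, MEIS2, PBX2, PBX3 and PKNOX2 stand higher at each later time point than at 34 h, MEIS3 at 50 and 72 h and PBX4 at 72 h, and PKNOX1 stands lower at each and PBX4 at 42 h, with no overlap of the libraries.

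MEIS2 (ENSG00000134138; chromosome 15, 36889204 to 37101299, minus strand, GENCODE release 29) had the largest change of the 8 genes on the log2(TPM + 1) scale at 72 h against 34 h, a scale that understates the change of low genes such as MEIS1. It is a MEIS-family partner of PBX and HOX proteins, expressed in the embryonic hindbrain and midbrain among other tissues. It had 2.11 and 3.25 TPM in its 34 h libraries (replicates 1 and 2), 18.7 and 14.7 in those of 42 h, 47.5 and 41.1 in those of 50 h and 86.8 and 95.8 in those of 72 h. The groups did not overlap at any pair of time points. The mean was 6.23 times its 34 h level at 42 h, 16.5 times at 50 h and 34.0 times at 72 h. On the log2(TPM + 1) scale it rose by 2.27 ± 0.18 (SE) at 42 h (limma adjusted p 0.000546; 2.66 and 1.89 within replicates 1 and 2), by 3.63 ± 0.18 at 50 h (4.24e-05) and by 4.66 ± 0.18 at 72 h (4.39e-06). These 3 calls were kept under each of the 19 alternative settings, with adjusted p-values up to 0.0308 at 42 h.

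MEIS2 was the 6th of the 8 genes by level at 34 h (2.68 ± 0.805 TPM, SD, n = 2), where it overlapped PBX4, and the 2nd at 50 h (44.3 ± 4.56) and 72 h (91.3 ± 6.37). Its level passed that of 18.7% of the tested genes at 34 h and 89.2% at 72 h. From 50 h to 72 h it rose by 1.03 ± 0.18 (limma adjusted p 0.0147). That call was lost without replicate 2 at 50 h (0.0841), replicate 1 at 72 h (0.0771) or replicate 2 at 72 h (0.0967). From 42 h to 50 h the difference was 1.36 ± 0.18, with an adjusted p of 0.0511 that fell to 0.0308 when only genes with a mean of at least 5 TPM were tested. In that interval 0 of the 8 cofactor genes were called by limma, and 0.0939% of all tested genes were called. At an unadjusted p under 0.05 there were 5 of the 8, and 1394 of all 14908 tested genes.

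MEIS3 (ENSG00000105419; chromosome 19, 47403124 to 47419523, minus strand), a MEIS gene linked to hindbrain patterning in vertebrate embryos, moved later. It had 13.5 and 13.7 TPM in its 34 h libraries, 15.6 and 13.4 in those of 42 h, 22.1 and 20.2 in those of 50 h and 56.4 and 49.5 in those of 72 h. The 34 h and 42 h libraries overlapped, while both 50 h libraries lay above them and both 72 h libraries above all others. Between 50 h and 72 h its log2 value rose by 1.28 ± 0.13 (limma adjusted p 0.00113; replicate 1 alone 1.32, replicate 2 alone 1.25), and the mean at 72 h was 3.89 times that at 34 h (1.88 ± 0.13, 4.47e-05). At 42 h the difference from 34 h was 0.08 ± 0.13 (adjusted p 0.884, 95% interval -0.22 to 0.38). Side by side, the change from 34 h to 42 h was 2.27 for MEIS2 and 0.08 for MEIS3, and from 50 h to 72 h it was 1.03 and 1.28. The difference between the genes was not tested.

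Both comparisons of MEIS3 at 72 h kept their call under all 19 alternatives, but its call at 50 h against 34 h (0.60 ± 0.13, limma adjusted p 0.0350) did not. It was lost without either 34 h library (0.143 and 0.151), either 50 h library (0.152 and 0.0784) or either 72 h library (0.0579 and 0.0573). It was also lost without the filter (0.0572), after quantile normalization (0.0551), without a mean trend (0.0505) and with the compared time points alone (0.108), in a range of 0.0268 to 0.235. MEIS3 has 2 processed pseudogenes in the table, MEIS3P1 and MEIS3P2, each with 2 differences from MEIS3 in the 90 bases shown and 91.7% and 92.1% identity over alignments of 998 and 1115 positions with the transcript. Their summed TPM was between 2.998 and 7.40 in a library, or 35.4% and 26.7% of the sum with MEIS3 at 34 h and 10.4% and 10.6% at 72 h. Reads of so close a copy may be split among them by the authors' counting, so the MEIS3 level is uncertain. The pseudogenes (958 and 1075 bases) are shorter than the MEIS3 transcript compared (1883). TPM are scaled for length, so the same reads would add less TPM to MEIS3 than that share. With the pseudogenes added, the 72 h change against 34 h was 1.53 (limma adjusted p 0.000164) and the 50 h change was 0.32 (0.235).

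MEIS1 (ENSG00000143995; chromosome 2, 66433452 to 66573869, plus strand), a cofactor best known from blood cells, heart and limb as well as neural tissue, was near 0 until 72 h. Its values were 0.0341 and 0.0499 TPM for 34 h, 0.122 and 0.218 for 42 h, 0.143 and 0.286 for 50 h and 3.39 and 1.12 for 72 h. The 72 h libraries lay above all others but far from each other, and MEIS1 had the widest replicate spread of the 8 genes (0.379 on the log2 scale, against a median of 0.169 over all tested genes). Its change at 72 h against 34 h was 1.55 ± 0.37 (limma adjusted p 0.0187; replicate 1 alone 2.09, replicate 2 alone 1.01). With a pseudocount of 0.1 in place of 1 the change was 3.86 (limma adjusted p 0.0196), so its size depends on the pseudocount. The call was lost without replicate 1 (0.0786) or replicate 2 (0.0800) at 34 h. Without either 72 h library it did not pass the filter on low values.

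The make-up of the MEIS genes changed as their sum grew. The summed TPM of MEIS1, MEIS2 and MEIS3 was 15.7 and 17.0 for 34 h, 34.4 and 28.3 for 42 h, 69.7 and 61.5 for 50 h and 147 and 146 for 72 h. MEIS3 held 86.3% and 80.6% of it at 34 h, and MEIS2 held 54.3% and 52.1% in the 42 h libraries and 68.1% and 66.8% in those of 50 h. By 72 h MEIS2 held 59.2% and 65.4%, MEIS3 38.5% and 33.8%, and MEIS1 2.31% and 0.764%. With the full TPM of the MEIS3 pseudogenes added to MEIS3, the order at 42 h turned. MEIS3 then had 19.2 and 16.8 TPM beside 18.7 and 14.7 of MEIS2, which held 49.2% and 46.4% of the sum. That addition may overstate MEIS3, because the pseudogenes are shorter, so the order of MEIS2 and MEIS3 at 42 h is uncertain.

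PKNOX1 and PKNOX2 moved in opposite directions. PKNOX1 (ENSG00000160199; chromosome 21, 42974510 to 43033931, plus strand), a broadly expressed PBX partner also named PREP1, had 15.7 and 15.3 TPM in its 34 h libraries, 10.2 and 9.85 in those of 42 h, 6.85 and 7.86 in those of 50 h and 6.49 and 5.45 in those of 72 h. PKNOX2 (ENSG00000165495; chromosome 11, 125164687 to 125433389, plus strand), its paralog with a more restricted expression, had 11.3 and 8.50 TPM in its 34 h libraries, 18.3 and 17.7 in those of 42 h, 29.6 and 24.9 in those of 50 h and 28.4 and 29.5 in those of 72 h. At 34 h both PKNOX1 libraries lay above both PKNOX2 libraries, and from 42 h onward the order was the opposite in every library.

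The fall of PKNOX1 against 34 h was called at 50 h (-0.99 ± 0.15, limma adjusted p 0.00687) and at 72 h (-1.25 ± 0.15, 0.000782; replicate 1 alone -1.16, replicate 2 alone -1.34), where its mean was 0.384 of the 34 h level. At 42 h it stood 0.59 ± 0.15 below 34 h on the log2 scale, with non-overlapping libraries but an adjusted p of 0.105 (unadjusted 0.00431). The 50 h call was lost without replicate 1 (0.0527) or replicate 2 (0.0502) at 34 h, and the 72 h call was kept under all 19 alternatives. PKNOX2 rose by 0.81 ± 0.16 at 42 h (limma adjusted p 0.0360), 1.38 ± 0.16 at 50 h (0.00170) and 1.47 ± 0.16 at 72 h (0.000445; replicate 1 alone 1.25, replicate 2 alone 1.68), where its mean was 2.92 times that at 34 h. Its 50 h and 72 h calls were kept under all 19 alternatives. The 42 h call was lost without replicate 2 at 34 h (0.204), either 42 h library (0.167 and 0.158) or either 72 h library (0.0716 and 0.0711), without the filter (0.0849), without a mean trend (0.0576) and with the compared time points alone (0.154), in a range of 0.0241 to 0.204.

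From 50 h to 72 h neither PKNOX gene was called. The difference was 0.09 for PKNOX2 (95% interval -0.27 to 0.45) and -0.26 for PKNOX1 (-0.61 to 0.08). The ratio of PKNOX2 to PKNOX1 was 0.720 and 0.555 for 34 h, 1.80 and 1.80 for 42 h, 4.31 and 3.17 for 50 h and 4.37 and 5.41 for 72 h. As a ratio of 72 h to 34 h, though not in TPM, their sum moved less than either gene. It went from 27.1 and 23.8 TPM at 34 h to 34.8 and 34.9 at 72 h.

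**Figure D2:**
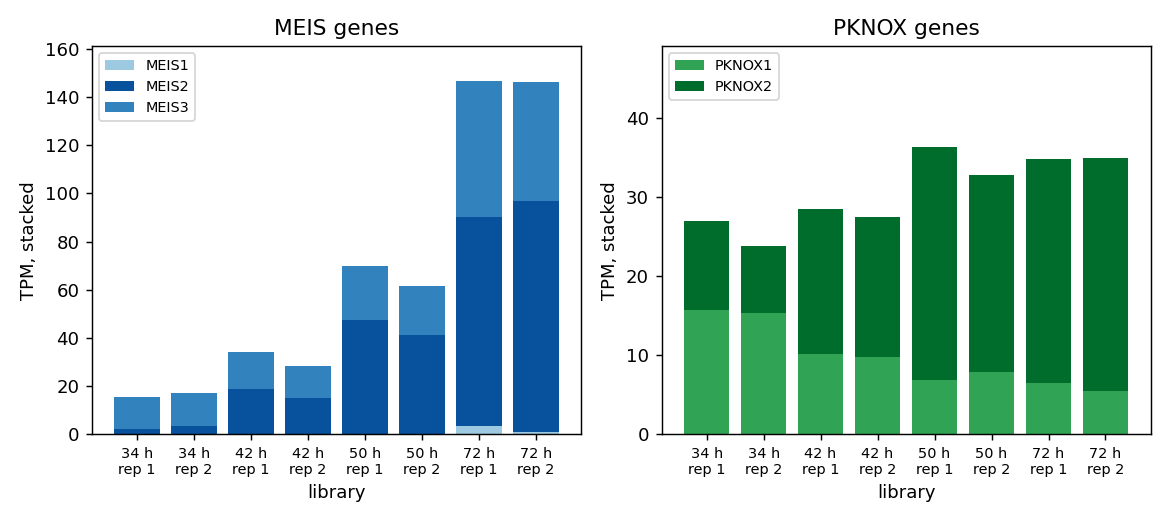
TPM of the MEIS genes (left) and PKNOX genes (right) stacked in each of the 8 libraries, vertical axes in TPM from 0. The MEIS sum grows from 15.7 to 147 TPM and its largest part passes from MEIS3 to MEIS2, while the PKNOX sum stays between 23.8 and 36.4 TPM and its largest part passes from PKNOX1 to PKNOX2.

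PBX2 (ENSG00000204304; chromosome 6, 32184741 to 32190186, minus strand), a broadly expressed PBX gene in the major histocompatibility complex region, had the highest level of the 8 genes at each time point. Summed over its Ensembl rows it had 84.1 and 84.0 TPM in its 34 h libraries, 101.2 and 93.4 in those of 42 h, 99.4 and 108.9 in those of 50 h and 140.2 and 140.3 in those of 72 h. All libraries of 42 h and 50 h lay above the 34 h libraries and below the 72 h libraries, and those of 42 h and 50 h overlapped. It rose by 0.73 ± 0.09 from 34 h to 72 h (limma adjusted p 0.000910; replicate 1 alone 0.73, replicate 2 alone 0.73), to 1.67 times the 34 h mean. Its replicate spread was 0.0614 on the log2 scale, the lowest of the 8 genes.

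The PBX2 sum draws on several rows. PBX2 has 7 Ensembl rows under this symbol, of which 1 is annotated on the primary assembly, and that row held between 1.18% and 5.65% of the summed TPM. The row with the most, ENSG00000237344, held between 39.0% and 61.9%. Taken apart, the primary row had 4.72 and 1.03 TPM in the 34 h libraries and 7.63 and 4.48 in those of 72 h, a log2 difference of 1.01, larger than that of the sum but not called (limma adjusted p 0.269). From 50 h to 72 h the sum rose by 0.43 ± 0.09 (limma adjusted p 0.0274). That call was lost without either 50 h library (0.103 and 0.0528), without either 72 h library (0.152 and 0.135), without a mean trend (0.0776), with the compared time points alone (0.0965) and with the rows apart (a difference of 0.82, 0.478). GENCODE places AL662884.1 across PBX2 on its strand. It places MEIS1-AS2 and MEIS1-AS3 across MEIS1 and AC078909.1 across MEIS2, on the opposite strand. The deposited values hold no entry under the Ensembl identifier of any of these genes. The pseudogene PBX2P1, 98.5% identical over an alignment of 1291 positions, had at most 0.410 TPM in a library.

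**Figure D3:**
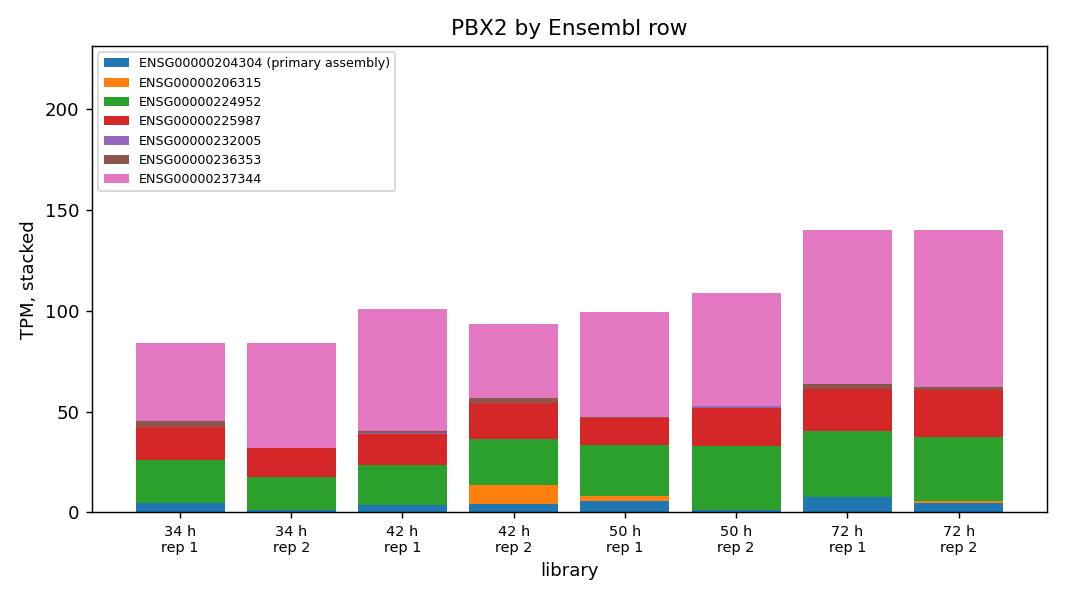
TPM of the 7 Ensembl rows named PBX2, stacked in each of the 8 libraries, vertical axis in TPM from 0. The replicate sums are close at 34 h (84.1 and 84.0 TPM) and 72 h (140.2 and 140.3), while the division among rows differs between replicates.

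PBX3 (ENSG00000167081; chromosome 9, 125747345 to 125967377, plus strand), a PBX gene expressed in the developing nervous system, had the smallest log2 change of the 8 genes at 72 h. It had 24.5 and 23.5 TPM in its 34 h libraries, 30.3 and 28.8 in those of 42 h, 28.2 and 33.1 in those of 50 h and 31.1 and 36.8 in those of 72 h. The 34 h libraries lay below all others, the 50 h libraries overlapped those of 42 h and of 72 h, and both 72 h libraries lay above both of 42 h. Its rise of 0.48 ± 0.13 at 72 h (limma adjusted p 0.0325; replicate 1 alone 0.33, replicate 2 alone 0.63) was lost without either 34 h library (0.0922 and 0.136), either 72 h library (0.0510 and 0.186), after quantile normalization (0.0649), without a mean trend (0.0511) and with the compared time points alone (0.0531), in a range of 0.0273 to 0.186.

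PBX4 (ENSG00000105717; chromosome 19, 19561707 to 19618916, minus strand), the PBX gene best known from testis in adult tissue, was low throughout. It had 2.11 and 2.21 TPM in its 34 h libraries, 1.20 and 1.26 in those of 42 h, 2.75 and 1.71 in those of 50 h and 4.23 and 4.36 in those of 72 h. The 42 h libraries lay below and the 72 h libraries above all others, and those of 34 h fell between the 50 h libraries. The difference of 42 h from 34 h was -0.50 ± 0.22 and was not called (limma adjusted p 0.372). The rise at 72 h of 0.75 ± 0.22 was called (0.0444) but was lost with the replicate block (0.0570), at a pseudocount of 0.1 (0.0591), after TMM rescaling (0.0530) or quantile normalization (0.0512), without the filter (0.0689), with Ensembl rows apart (0.0512), and without either 34 h library (0.149 and 0.137), either 42 h library (0.0592 and 0.0590) or either 72 h library (0.148 and 0.165). Its range over the alternatives was 0.0221 to 0.165.

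**Figure D4:**
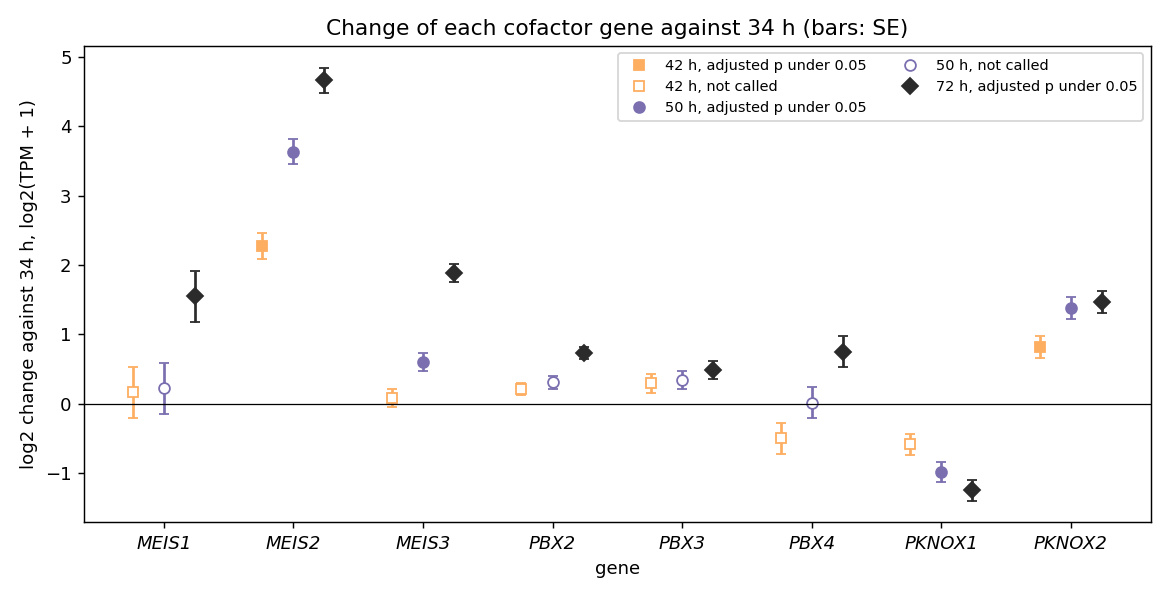
Difference from 34 h on the log2(TPM + 1) scale for the 8 genes at 42, 50 and 72 h (vertical axis), with bars for the limma SE and filled symbols for an adjusted p under 0.05. MEIS2 reaches 4.66 at 72 h, PKNOX1 falls to -1.25, and the 3 PBX genes lie between 0.48 and 0.75 at 72 h, with none of them called at 42 or 50 h.

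Between 50 h and 72 h 3 of the 8 genes were raised, MEIS2, MEIS3 and PBX2, and 0 were lowered, against 2.92% raised and 4.41% lowered among all tested genes. Without replicate 2 at 50 h or either 72 h library the count was 1, MEIS3.

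The order of the levels changed from one time point to the next. At 34 h it was PBX2 (84.0 ± 0.104 TPM), PBX3 (24.0 ± 0.717), PKNOX1 (15.5 ± 0.286), MEIS3 (13.6 ± 0.116), PKNOX2 (9.91 ± 2.00), MEIS2 (2.68 ± 0.805), PBX4 (2.16 ± 0.0730) and MEIS1 (0.0420 ± 0.0112), and of the neighbours in this order MEIS2 and PBX4 overlapped. At 42 h PKNOX2 (18.0 ± 0.450), MEIS2 (16.7 ± 2.76) and MEIS3 (14.5 ± 1.59) followed PBX2 and PBX3, and neighbours among these 3 overlapped. At 50 h PBX3 (30.6 ± 3.51) and PKNOX2 (27.3 ± 3.26) overlapped. At 72 h the order was PBX2 (140.2 ± 0.0667), MEIS2, MEIS3 (53.0 ± 4.90), PBX3 (33.9 ± 4.07), PKNOX2 (28.9 ± 0.777), PKNOX1 (5.97 ± 0.733), PBX4 (4.30 ± 0.0934) and MEIS1 (2.25 ± 1.60), with no overlap between neighbours.

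The cofactors were measured before and during the onset of their HOX partners. The 12 HOX genes of paralog groups 1 to 4 were all listed at 0 in both 34 h libraries, where PBX2, PBX3, PKNOX1, PKNOX2 and MEIS3 each had 8.50 TPM or more in both. Summed, these HOX genes had 3.76 and 3.75 TPM in the 42 h libraries, 18.8 and 14.7 in those of 50 h, and 44.2 and 47.4 in those of 72 h. MEIS2 alone stood above these sums in every library from 42 h onward. Of the 12, 5 passed the filter on low values, and a HOX gene could pass it only by rising, so the 1, 2 and 5 raised at 42, 50 and 72 h (1.78%, 3.52% and 12.7% of all tested genes) are a description.

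**Figure D5:**
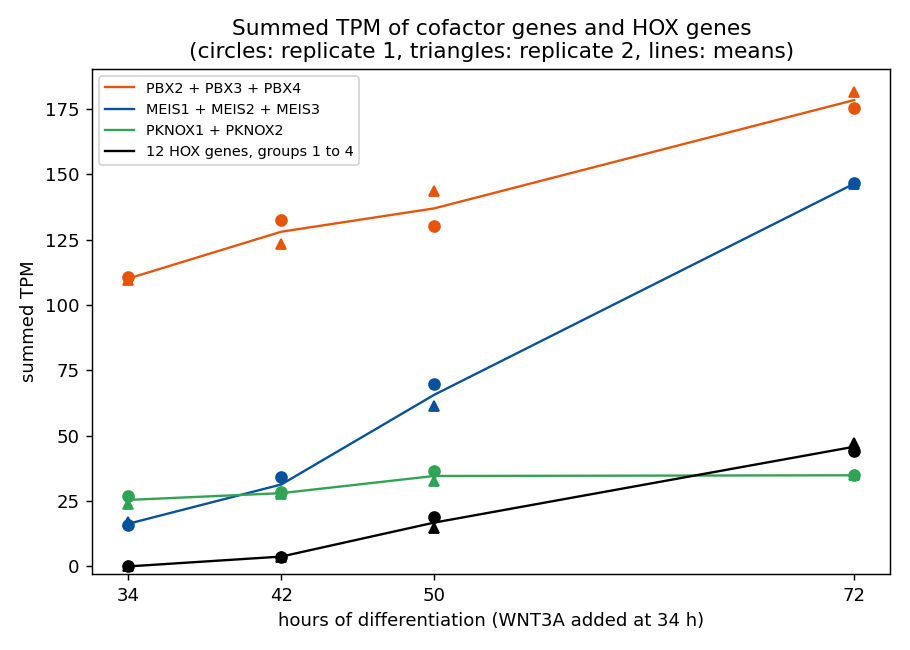
Summed TPM of the PBX genes, MEIS genes, PKNOX genes and 12 HOX genes of groups 1 to 4 (vertical axis) against hours of differentiation, with 1 point per library. The cofactor sums are above 0 at 34 h, where the HOX sum is 0, and at 72 h the MEIS sum reaches 146 and 147 TPM beside 44.2 and 47.4 TPM of HOX genes.

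Other TALE homeobox genes were also measured. Of 9 listed (TGIF1, TGIF2, IRX1 to IRX6 and MKX), 6 were tested; 0 were lowered, while 2 were raised at 42 h (IRX1 and IRX3), 3 at 50 h (IRX1, IRX3 and IRX5) and another set of 3 at 72 h (IRX1, IRX2 and TGIF2), where 1.78%, 3.52% and 12.7% of all tested genes were raised. Their median log2 change was 0.84, 0.63 and 0.42 at 42, 50 and 72 h, beside 0.01, 0.04 and 0.06 over all tested genes. IRX1, an Iroquois factor of the anterior neural plate and hindbrain, was called at each later time point, with 15.1 and 11.8 TPM in the 34 h libraries and 104 and 121 in those of 72 h (2.98 ± 0.17, limma adjusted p 1.51e-05). TGIF1, a TALE repressor that can bind the same core as MEIS, had 159 and 146 TPM in the 34 h libraries and 131 and 114 in those of 72 h, which was not called (-0.31 ± 0.10, limma adjusted p 0.0509). TGIF2 rose by 0.52 ± 0.15 at 72 h (0.0348).

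Hindbrain segment genes, several of them known targets or partners of HOX complexes, were mostly called at 72 h. Of 10 listed, 6 were tested; 1 was raised at 42 h (GBX2), 2 at 50 h (GBX2 and EPHA4) and all 6 at 72 h, and 0 were lowered, where 1.78%, 3.52% and 12.7% of all tested genes were raised. Their median log2 change at 42, 50 and 72 h was 0.40, 0.45 and 4.07, beside 0.01, 0.04 and 0.06 over all tested genes. CYP26C1 and RARB passed the filter only through their 72 h libraries, and FGF3 was listed at 0 in both 34 h libraries, so these 3 could only be called as raised at 72 h. The 72 h median includes these 3 genes and so is a description. EPHA4, an ephrin receptor of the odd-numbered rhombomeres, had 8.89 and 5.93 TPM in the 34 h libraries, 14.2 and 14.4 in those of 50 h, and 107 and 103 in those of 72 h (3.67 ± 0.17 against 34 h, limma adjusted p 7.12e-06). RARB, a retinoic acid receptor gene, had 0.0870 and 0.0436 TPM in the 34 h libraries and 2.93 and 2.21 in those of 72 h.

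Among partners outside the HOX clusters 2 of 7 were tested: OTX2, a forebrain and midbrain factor, fell at 42, 50 and 72 h, by 2.15 ± 0.20 at 72 h (limma adjusted p 0.000218), and PAX6, which passed the filter only through its 72 h libraries and so had to differ there, had at most 0.597 TPM before 72 h and 4.01 and 3.59 TPM in the 72 h libraries. The Engrailed gene EN1, a PBX partner at the midbrain-hindbrain boundary, had at most 0.515 TPM in a library. Of 2 genes for proteins that bind PBX or HOX proteins and hold them back, PBXIP1 and GMNN, neither was called against 34 h at any time point (at 72 h, limma adjusted p 0.167 and 0.617). PBXIP1 had between 17.1 and 28.8 TPM and GMNN between 128 and 146 TPM.

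Markers of the cell types the cultures could hold moved with time as well. All 9 pluripotency markers had at least 1 TPM in both 34 h libraries and 8 of 9 in both 72 h libraries, and their sum went from 3925 and 4020 TPM to 1922 and 2004 TPM, although LIN28A (908 and 897 TPM in the 34 h libraries, 1078 and 970 in those of 72 h) and PRDM14 (23.7 and 20.4, then 28.8 and 24.5) stood higher at 72 h. The sum of 7 neural progenitor markers went from 381 and 400 TPM to 691 and 741 TPM, most of it SOX2 and NES. Of the 7, 5 had 1 TPM or more in both 34 h libraries and 6 in both 72 h libraries. SOX3 overlapped between these times (21.7 and 20.7 TPM, then 23.4 and 16.4), and HES5 went from 0.142 and 0.182 TPM to 0 in both. The sum of 12 mesoderm and endoderm markers was 14.3 to 15.5 TPM at 34 h, 20.2 to 23.2 at 42 h and 4.20 to 5.22 at 72 h, with SOX17 listed at 0 in all libraries. That sum joins opposite courses: TBXT, a primitive streak gene, had 0.831 and 1.16 TPM in the 34 h libraries, 11.4 and 7.92 in those of 42 h, 9.62 and 6.83 in those of 50 h and 1.62 and 1.87 in those of 72 h, and FOXA2 had 11.9 and 13.4, 7.02 and 7.73, 5.42 and 6.03, and 0.575 and 0.866. MIXL1 and EOMES had at most 0.115 TPM at 34 h and between 1.21 and 1.66 TPM at 42 h. The sum of 8 neural crest markers was 11.2 to 13.0 TPM at 34 h, 6.99 to 9.63 at 42 h and 14.4 to 16.8 at 72 h. It too joins opposite courses: FOXD3 had 4.65 and 4.48 TPM in the 34 h libraries and was listed at 0 in those of 72 h, while SNAI2 had 0.339 and 0.360, then 6.99 and 5.19, and PAX3 had 0.269 and 0, then 4.81 and 4.24. The sum of 9 neuronal markers was 214 to 267 TPM at 34 h and 183 to 216 at 72 h, most of it TUBB3, while STMN2 had 0.320 and 0.256 TPM at 34 h and 8.01 and 7.10 at 72 h and NEUROD1 at most 0.0247 TPM. MEIS and PBX genes are also expressed in crest, mesoderm and neurons, and the part of such cells in their levels was not tested.

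For each of the 6 cofactors called by the F-test, genes of like pattern over the 8 libraries, the top 3, were sought by Pearson correlation of log2(TPM + 1) among 11534 genes. For MEIS2 they were AIF1L (r = 0.995), STOML3 (0.994) and NRXN3 (0.994). For MEIS3 they were SOX1 (0.998), GAL3ST1 (0.997) and IGFBP5 (0.997), and SOX1, a neural progenitor factor, had 1.89 ± 0.363 TPM at 34 h, 2.65 ± 0.439 at 42 h, 6.10 ± 0.528 at 50 h and 50.8 ± 7.97 at 72 h. PKNOX1 had TERF1 (0.991), HSPE1 (0.989) and PPP2R2B (0.987), and PKNOX2 had DNAH9 (0.992), PTK7 (0.991) and TSPAN18 (0.991). Among the 3 of PBX2 were ZDHHC4 (0.990) and TYMS (0.990), and PBX4 had USP4 (0.987), PODXL2 (0.976) and SSBP4 (0.975). The libraries share their time points, so any gene with a steady trend correlates with others of like shape. TERF1, which encodes a telomere-binding protein, went from 231 ± 7.20 TPM at 34 h to 114 ± 3.81 at 42 h and 58.0 ± 13.9 at 72 h, a course like that of PKNOX1 at a higher level.

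RefSeq promoter sequences (GRCh38.p14) were found for 7 of the 8 genes, in 9 windows, and the 250 bases before each start were searched on both strands for 4 motifs. The core TGACAG, which MEIS and PKNOX proteins bind, was in 1 of the 9 windows and in 13.0% of all 35116 windows. TGATNNAT, a form of the joint PBX and HOX site, was in 1 of the 9 and in 6.47% of all. CTTTGAT and CTTTGTT, forms of the site of the TCF and LEF factors through which WNT signals act, were in 0 of the 9 windows and in 2.26% and 4.50% of all. The matches are shown 5′ to 3′ on the gene's strand because they are the places where a cofactor gene holds a cofactor motif near its start, with the motif in capitals. PBX3 holds the reverse complement of TGACAG, 20 bases before the start (chr9:125748152-125748181, plus strand), and MEIS2 holds TGATNNAT, 64 bases before the start of the other of its windows (chr15:37098742-37098771, minus strand).
PBX3: actttgccgagCTGTCAccctcccgctggc
MEIS2: atttcgcctttTGATTTATtggatcctcag
A match describes letters in the window and is no evidence that a factor binds there.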

How the data were processed

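The authors deposited TPM values per Ensembl gene, with 1 column per library; Salmon 1.9.0 and GRCh38 are named in the submitters' processing notes, and the annotation and filters are not given in the sources used here. The 37951 rows were summed by symbol to 35940 genes. Values were fitted as log2(TPM + 1), with a pseudocount of 1, by limma 3.58.1 in R 4.3.3, with 1 mean per time point over all 8 libraries, a mean-variance trend, and two-sided p-values adjusted by Benjamini-Hochberg over 14908 genes. An exact permutation test of 2 against 2 libraries cannot reach 0.05 and was not used. The scripts were tested on simulated data. The members and gene lists were chosen with earlier results of these data known. The text names every member, genes of the lists, pseudogenes named after a member, and for each member called by the F-test the 3 genes most like it; not every list gene is named, and a few items are not reported here. Replicate numbers pair libraries through the batch label; replicate differences correlated at 0.0949 (34 and 42 h), 0.195 (34 and 50 h) and 0.142 (42 and 50 h), and at -0.0445, -0.0779 and -0.104 between 72 h and those times. Genes were placed by Ensembl identifier with GENCODE release 29 (GRCh38), and promoters are from RefSeq on GRCh38.p14.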

Additional observations from a re-analysis of the deposited data

How the results depend on the processing

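Of 17 called changes of a cofactor gene, 8 kept their call under every one of 19 alternatives that tested them and 9 lost it under at least 1; 0 changed sign. The count of cofactor genes changed at 42 h against 34 h, 2 as reported, was 1 without the filter on low values, without a mean trend and when only the compared time points were fitted, and 1 to 2 when a library was left out. The counts of 4 at 50 h, 8 at 72 h and 3 from 50 h to 72 h were 2 to 4, 5 to 8 and 1 to 3 when a library was left out. Under the alternatives that keep all libraries they were 3 to 4, 6 to 8 and 2 to 3, and the F-test count of 6 was 5 to 7. At a mean of at least 5 TPM, MEIS1 and PBX4 were not tested. From 42 h to 50 h the count of 0 became 1 with a mean of at least 5 TPM. With the replicate block (paired by batch) the call of PBX4 at 72 h was lost (adjusted p 0.0570) and no other call of a cofactor gene changed.

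Fitting the compared time points alone lowered the calls over all genes from 384 to 171 (42 h), 933 to 431 (50 h), 14 to 0 (50 h against 42 h, with 1089 at an unadjusted p under 0.05) and 1093 to 367 (72 h against 50 h). The 14 were 8 without the filter, 24 with a mean of at least 5 TPM, 27 without a mean trend, 7 with the replicate block and 4 with Ensembl rows apart. Leaving out a library gave 160 to 385 genes at 42 h, 412 to 809 at 50 h, 1840 to 3661 at 72 h, 1 to 8 from 42 h to 50 h, 319 to 929 from 50 h to 72 h, and 1158 to 2508 (2587 as reported) by the F-test.

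Uncalled values changed sign as follows: MEIS3 at 42 h, -0.13 with its pseudogenes, and -0.025 to 0.18 when a library was left out; PBX4 at 50 h against 34 h, -0.015 after TMM rescaling, -0.0020 without mitochondrial genes, and -0.22 to 0.25 when a library was left out. PBX2 from 42 h to 50 h was -0.36 with Ensembl rows apart. When a library was left out, MEIS1 from 42 h to 50 h was -0.032 to 0.14, PBX3 from 42 h to 50 h -0.068 to 0.16, and PKNOX2 from 50 h to 72 h -0.031 to 0.20. The cause was not tested. TPM carry no read number, so the precision of low genes such as MEIS1 and PBX4 is unknown.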
